A study of Mus musculus with 4 samples.

Results

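mmu-miR-21a-5p is the guide strand of miR-21a, a miRNA encoded within the Vmp1 locus, and it was examined here in overloaded mouse plantaris muscle through the chimeric eCLIP-seq lines that carry its name. A line is 1 peak, a stretch of the genome bound by Ago2, together with 1 miRNA that was ligated to the RNA there. All lines named mmu-miR-21a-5p were taken, 1909 of 93468 in the MOV control library and 1926 of 100897 in the MOV mimic library, 3835 of 194365 in all. A target gene is a gene whose GRCm38 (mm10) span overlapped such a peak on the same strand.

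The muscles came from male mice of 5 months of the C57BL/6J strain, after 10 days of mechanical overload (MOV). In this surgery part of the synergist muscles, the gastrocnemius and soleus, is removed, which raises the load on the plantaris. Both groups shared the overload and a lentivirus injection, the MOV control with a scrambled insert and the MOV mimic with a miR-1 mimic under a mouse CMV promoter, which is not restricted to muscle fibres. The series held 4 libraries, 1 in each group, and the 2 input libraries were not analysed here. The study called this experiment exploratory, and according to its methods the left plantaris received the control virus and the right plantaris the mimic virus, but whether both libraries came from 1 mouse was not stated. The control library held 232408 chimeric reads and the mimic library 259207, a ratio of 1.12. The miRNA that was delivered, miR-1a-3p, had 27411 reads in MOV control and 35876 in MOV mimic, a ratio of 1.31. Genes of fast muscle fibres carried many reads of all miRNAs in both libraries, 6380 and 11359 at Myh1, a fast myosin heavy chain, and 1639 and 1975 at Ckm, the muscle creatine kinase. No value below has a replicate, so differences describe these 2 libraries, and the 95% intervals cover counting error only.

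miRNAs guide Ago2 to messenger RNAs through their seed, bases 2 to 8, and the bound RNA is usually translated less or degraded. miR-21 is among the most abundant miRNAs in fibroblasts and macrophages, is known for rising in fibrosis and injury, and has published targets that include Pdcd4, Spry1, Reck and Timp3. Whole muscle holds fibres, fibroblasts, vessels and immune cells, and these libraries cannot tell in which of them a chimera formed.

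The mature sequences that matter for naming the reads are shown from RefSeq (GRCm38.p6), 5′ to 3′, with the seed in capitals. The first is the miRNA itself, the second the other arm of its hairpin, and the last pair are the listed names closest to it in sequence.
mmu-miR-21a-5p: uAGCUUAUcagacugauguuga
mmu-miR-21a-3p: cAACAGCAgucgaugggcuguc
mmu-miR-3967: aGCUUGUCugacugauguug
mmu-miR-3965: uGCUUAUCagccugauguu
miR-3967 differed from miR-21a-5p at 2 of 20 aligned bases and miR-3965 at 2 of 19, when aligned without gaps. They were the only other RefSeq mouse miRNAs within 3 mismatches. How the authors chose between such names was not stated. miR-3967 had 22.6 reads in MOV control and 17.6 in MOV mimic, and miR-3965 had 10.5 and 11.9, so both were rare beside miR-21a-5p. The only other RefSeq name with the same seed, mmu-miR-21c, was not listed in either library.

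miR-21a-5p had 7602 reads in MOV control (95% Poisson interval 7432 to 7775) and 8315 in MOV mimic (8137 to 8496). This was 3.27% of all chimeric reads in MOV control (exact Clopper-Pearson interval 3.2 to 3.34%) and 3.21% in MOV mimic (3.14 to 3.28%), so the intervals overlapped. By reads it ranked number 5 among the 560 listed miRNAs in both libraries, and by lines number 12 and 13. The ratio of mimic to control was 1.09 (exact conditional binomial interval 1.06 to 1.13), beside 1.12 for all other miRNAs. Divided by the library totals the ratio was 0.981 (0.951 to 1.01). This interval included 1. Across the other 147 miRNAs that had 50 peaks or more in each library the median ratio was 1.05, and 62 lay above miR-21a-5p.

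The larger part of the miR-21a-5p reads lay on the mitochondrial chromosome, and 91.5% and 92.6% of those, in control and mimic, lay in 1 peak on mt-Tm, the gene of the mitochondrial tRNA for methionine. The chromosome held 4052 miR-21a-5p reads in 26 lines in MOV control and 4571 in 29 lines in MOV mimic. These were 53.3% of its reads (52.2 to 54.4%) and 55.0% (53.9 to 56.0%). For all other miRNAs together the share was 12.3% and 12%. Among the 147 miRNAs of the background the median share was 2.49% and 2.75%. A larger share was seen for 2 of them in MOV control, let-7e-5p being the highest with 58.9%, and for 0 in MOV mimic, where let-7e-5p had 53.3%.

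The mt-Tm peak covered chrM:3845-3898 on the plus strand in both libraries, 54 bases of the 69 bases of the gene. It held 3709 miR-21a-5p reads in MOV control (3591 to 3830) and 4234 in MOV mimic (4107 to 4363), which was 48.8% and 50.9% of all miR-21a-5p reads. In each library it ranked number 2 among the lines of all miRNAs. The ratio of mimic to control was 1.14 (1.09 to 1.19), close to the 1.12 of all chimeric reads. miR-21a-5p made up 98.9% of the reads of all miRNAs in this interval in MOV control (98.5 to 99.2%) and 98.8% in MOV mimic (98.4 to 99.1%). The other 21 names in MOV control shared 41.1 reads and the other 31 names in MOV mimic shared 53.4. The largest of these were the near-identical miR-3967, with 12.6 and 8.79 reads, and miR-3965, with 4.96 and 6.52.

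Of the 22 mitochondrial tRNA genes, mt-Tm was the only one with a peak in both libraries. mt-Tl1 had 23.0 reads of all miRNAs in MOV control and no peak in MOV mimic. mt-Tv had 269 in MOV mimic, led by miR-133a-3p, and no peak in MOV control. The sequence of mt-Tm is shown because it carries the finding, 5′ to 3′, from the mm9 mitochondrial chromosome, whose 37 genes have the same spans in RefSeq GRCm38. Capitals mark the bases complementary to miR-21a-5p bases 1 to 7.
mt-Tm, chrM:3845-3913, plus strand: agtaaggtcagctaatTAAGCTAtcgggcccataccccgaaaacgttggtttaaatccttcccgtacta
The match covered bases 17 to 23 of the gene, inside the peak, and the base opposite miRNA base 8 did not pair. Seed matches were searched as the letters TAAGCT (6 bases, pairing with miRNA bases 2 to 7), TAAGCTA and ATAAGCT (7 bases) and ATAAGCTA (8 bases). The longer ones contain the shorter. The mitochondrial chromosome held TAAGCT 5 times on the plus strand and 8 times on the minus strand. Only the copy in mt-Tm lay in a peak of any miRNA, 1 of 38 mitochondrial intervals in MOV control (2.63%) and 1 of 37 in MOV mimic (2.7%). The single 8-base match, at chrM:15493-15500 on the plus strand, lay in no gene of that strand and in no peak. A match describes the letters only.

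**Figure D1:**
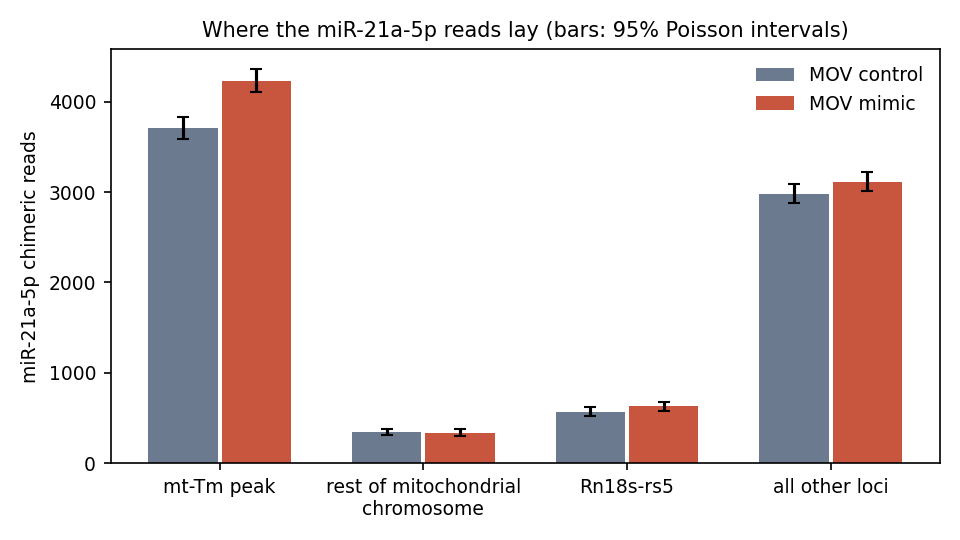
miR-21a-5p chimeric reads (vertical axis, number of reads) in the mt-Tm peak, the rest of the mitochondrial chromosome, the ribosomal RNA gene Rn18s-rs5 and all other loci, for the MOV control and MOV mimic libraries, with 95% Poisson intervals as bars. The mt-Tm peak held 3709 and 4234 reads and was the largest class in both libraries.

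Such concentration in 1 peak was seen for few miRNAs. Over the 147 other miRNAs the highest peak held a median of 7.09% of the reads in MOV control and 6.93% in MOV mimic. It held a larger share than for miR-21a-5p in 3 of them in MOV control and 2 in MOV mimic. The highest was miR-130a-3p, with 75.2% and 78.9%.

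**Figure D2:**
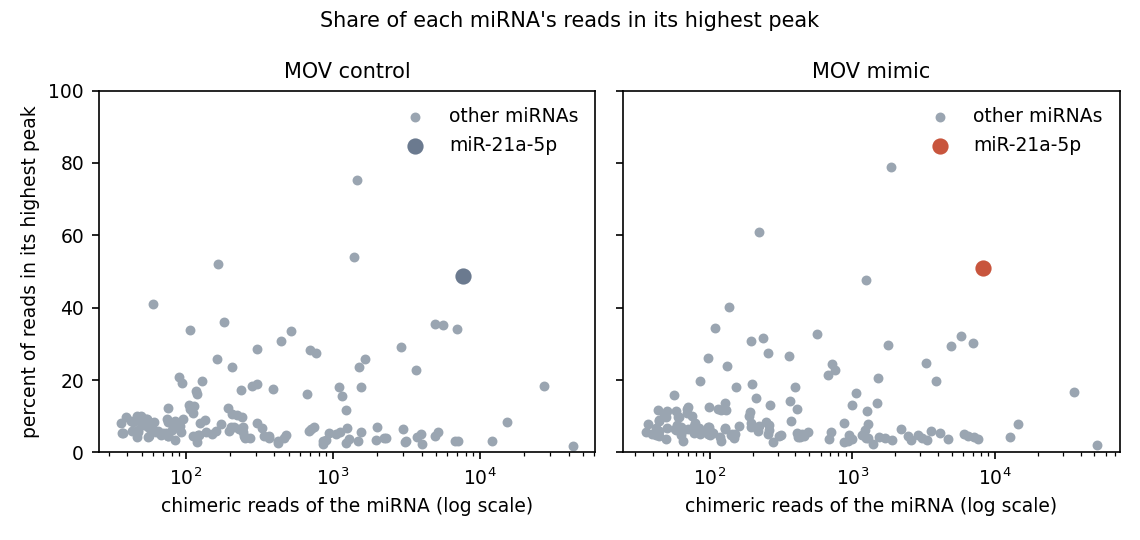
Percent of a miRNA's reads in its highest peak (vertical axis) against its chimeric reads (horizontal axis, log scale) for 148 miRNAs that had 50 peaks or more in each library, 1 panel per library. miR-21a-5p, the large point, had 48.8% of its reads in 1 peak in MOV control and 50.9% in MOV mimic, against medians of 7.09% and 6.93% for the others.

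Other mitochondrial genes held few miR-21a-5p reads, and a small part of the reads of all miRNAs there. mt-Rnr2, the large ribosomal RNA of mitochondria, had 193 reads in MOV control and 173 in MOV mimic, 2.11% and 1.84% of the reads of all miRNAs on it. mt-Nd1, a subunit of respiratory complex I, had 72.7 and 91.4, and mt-Rnr1, the small ribosomal RNA, had 17.5 and 20.3. mt-Nd5, another complex I subunit, had 7.75 reads in MOV control and 26.2 in MOV mimic (ratio 3.38, 1.43 to 8.31), while all miRNAs together had a ratio of 1.41 there. mt-Nd2, a complex I subunit whose gene follows mt-Tm on the same strand, went the other way. Its peak next to mt-Tm, chrM:3914-3997 in MOV control and chrM:3917-3992 in MOV mimic, held 37.4 and 7.48 reads (ratio 0.2, 0.0712 to 0.430). In the same interval all miRNAs had 131 and 99.4 reads. It had the largest fall among the 36 shared peaks with a mean of at least 10 reads.

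Rn18s-rs5, a copy of the 18S ribosomal RNA, held 570 miR-21a-5p reads in MOV control (7.49%) and 628 in MOV mimic (7.55%), beside 6.68% and 6.37% for the other miRNAs. The highest of its peaks, chr17:39847018-39847109 in MOV control, had 250 and 296 reads, where miR-21a-5p made up 12.9% and 13.8% of all miRNA reads. The other peaks of at least 10 reads, 6 in MOV control and 7 in MOV mimic, had 17.0 to 104 and 10.2 to 118 reads, and miR-21a-5p made up 1.59 to 2.93% of their reads. Ribosomal RNA is present in many copies, so its peaks cannot be tied to 1 gene.

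Outside the mitochondrial chromosome and Rn18s-rs5, miR-21a-5p had 2981 reads in 1873 lines in MOV control and 3116 in 1883 lines in MOV mimic. The ratio there was 1.05 (0.994 to 1.1), below the 1.12 (1.12 to 1.13) of the other miRNAs at these loci, and its share of the reads was 1.61% (1.55 to 1.67%) and 1.5% (1.45 to 1.55%). By this measure it ranked number 14 in both libraries. Most lines were weak. The median line held 0.843 reads in MOV control and 0.838 in MOV mimic, and 59.3% and 59.6% of lines held under 1 read. Lines of at least 10 reads numbered 26 and 33. The 10 highest lines held 24.7% and 26.4% of these reads.

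The miR-21a-5p peaks fell on 1153 genes in MOV control and, by coincidence, also 1153 in MOV mimic, of 6631 and 6916 genes with a peak of any miRNA. 534 genes were shared, 46.3% of each set, and 15 and 17 lines had no gene. No such share over genes is given here for other miRNAs, and most lines held under 1 read. Genes found in 1 library only are therefore not read as a difference in targets. How far the peaks recurred depended on their reads. Of the 1909 control peaks 643 overlapped a mimic peak of miR-21a-5p by at least 1 base (33.7%, 31.6 to 35.9%). The share was 25.4% of peaks under 1 read, 35.4% of peaks of 1 to under 3 reads, 77.4% of peaks of 3 to under 10 reads and 97.4% (37 of 38) of peaks of at least 10 reads. For other miRNAs the same shares were 23.3%, 39.0%, 80.4% and 97.1%. Below 3 reads, then, a peak in 1 library was usually not seen in the other.

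The nuclear genes with the most miR-21a-5p reads were mostly those of the muscle fibre, together with Aspn, Ahnak and the smooth muscle actin gene Acta2. Myh1 held 233 reads in MOV control (204 to 265) and 362 in MOV mimic (326 to 401). Ttn, the giant elastic protein of the sarcomere, held 112 and 149 in 68 and 88 lines. Acta1, skeletal muscle actin, held 79.7 and 94.2, and Tnnt3, fast troponin T, held 36.8 and 51.1. Reads from the near-identical myosin genes Myh1, Myh2 and Myh4, or from the actin genes, could be assigned to a wrong member, so values of single members are uncertain. At these genes miR-21a-5p was a small part of all miRNA reads, 3.65% and 3.18% at Myh1, 0.641% and 0.631% at Ttn, 3.35% and 3.49% at Acta1 and 5.99% and 5.28% at Tnnt3.

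Myh1 and Ckm had the most reads of all nuclear protein-coding genes in MOV mimic and held more there than in MOV control. The Myh1 ratio was 1.55 (1.31 to 1.84), but the reads of all miRNAs at Myh1 had a ratio of 1.78. Ckm held 92.4 and 165 reads (ratio 1.79, 1.38 to 2.34), and for all miRNAs its ratio was 1.21. Nearly all of this was in 1 peak, chr7:19414152-19414303 in MOV control, with 88.6 and 159 reads, where miR-21a-5p made up 20.2% and 22.9% of all miRNA reads. Myh2, the type 2A myosin heavy chain, held 150.1 and 117 reads (ratio 0.777, 0.607 to 1), while all miRNAs had 1.22 there. Myh4, the type 2B heavy chain, held 18 and 27.1.

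A measure of how particular a site is to miR-21a-5p is its part of all miRNA reads in the same interval. A site was called led by miR-21a-5p when a line of at least 3 reads held at least 50% of them, outside the mitochondrial chromosome and Rn18s-rs5. There were 75 led sites among 159 such lines in MOV control (47.2%) and 70 among 156 in MOV mimic (44.9%). Over the lines of all miRNAs the share was 41.7% in MOV control and 42% in MOV mimic, so the whole count lay near the background. The median over single miRNAs with at least 20 such lines was lower, 18.1% over 46 others in MOV control and 15% over 48 in MOV mimic, of which 10 and 11 lay above miR-21a-5p. Of the 84 and 86 lines below 50%, miR-21a-5p was still the name with the most reads at 23 and 19. Another miRNA had the most reads at the other 61 and 67, most often miR-133a-3p, at 23 and 32, and then miR-1a-3p, at 7 and 8.

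**Figure D3:**
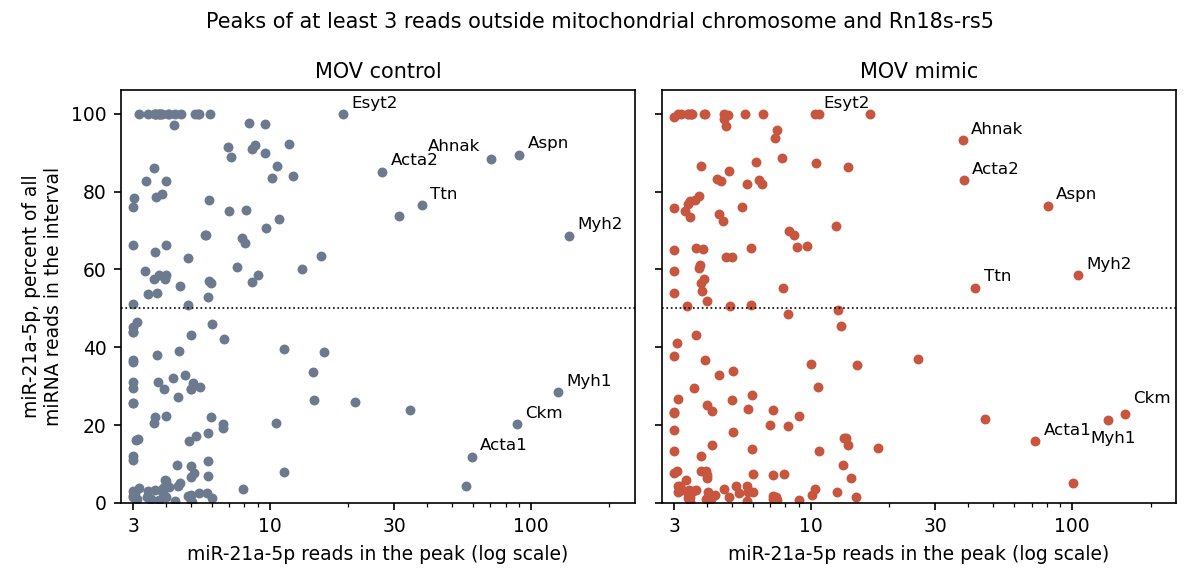
miR-21a-5p percent of all miRNA reads in an interval (vertical axis) against miR-21a-5p reads in it (horizontal axis, log scale), for 159 control and 156 mimic peaks of at least 3 reads outside the mitochondrial chromosome and Rn18s-rs5. The dotted line is 50%. Myh2, Aspn, Ahnak, Ttn, Acta2 and Esyt2 peaks lay above it in both libraries, and the highest Myh1, Ckm and Acta1 peaks lay below it in both.

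At 30 sites in 30 genes miR-21a-5p led in both libraries. The highest was at Myh2, chr11:67178860-67178936, with 140 reads in MOV control and 105.7 in MOV mimic, 68.7% and 58.6% of the interval. The next was at Aspn, which encodes asporin, a small proteoglycan of the extracellular matrix, chr13:49567218-49567340, with 90.4 reads (72.4 to 111) and 80.8 (64.3 to 101). There miR-21a-5p made up 89.5% and 76.4% of the interval, and over the whole gene 64.0% and 61.5% of all miRNA reads. Among 2275 genes with at least 10 reads of all miRNAs in each library, this mean share was exceeded at Rnf167 (73.0% and 68.8%) and Mindy2 (53.0% and 72.5%), an E3 ubiquitin ligase and a deubiquitinase, both with under 20 reads of all miRNAs in each library. The median gene had a share of 0 in both libraries.

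Ahnak, which encodes a very large scaffold protein at the plasma membrane, had 70.1 reads in MOV control and 38.2 in MOV mimic at chr19:9016411-9016556, where miR-21a-5p made up 88.3% and 93.3%. Summed over the gene it had 72.7 and 40.0 (ratio 0.550, 0.363 to 0.817), whereas all miRNAs had a ratio of 0.908 at Ahnak. Ttn had 38.3 and 42.6 reads at its led site, Acta2, smooth muscle actin, had 27.0 and 38.6, and Esyt2, a tether between endoplasmic reticulum and plasma membrane, had 19.2 and 10.4 with no other miRNA in the interval. Fn1, fibronectin, had 13.2 and 12.4 and Ski, a repressor of TGF-beta signalling, had 9.64 and 13.8. Ccn2, connective tissue growth factor, had 15.8 and 6.31 and Cdip1, a mediator of cell death, had 12.3 and 9.70. At these 10 sites the interval of the ratio lay below 1.12 for Myh2, Ahnak and Ccn2 and included it for the other 7. The same count was not made for sites led by other miRNAs, so it is not read as a feature of led sites.

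The shared peaks did not move together. 592 pairs of control and mimic peaks were each other's largest overlap, and the median of their log2 ratios (mimic over control) was 0.06 (order-statistic interval 0.00 to 0.19), beside 0.04 for other miRNAs. For the 94 pairs that held 3 reads or more in each library it was 0.16 (-0.01 to 0.28) with an SD of 0.75, beside 0.11 and 0.71 for the 6214 pairs of other miRNAs. At least 2-fold higher in MOV mimic were 9 of the 94 (9.57%), against 10.2% over all miRNAs. At least 2-fold lower were 7 (7.45%), against 5.58%. Both shares were near the background.

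**Figure D4:**
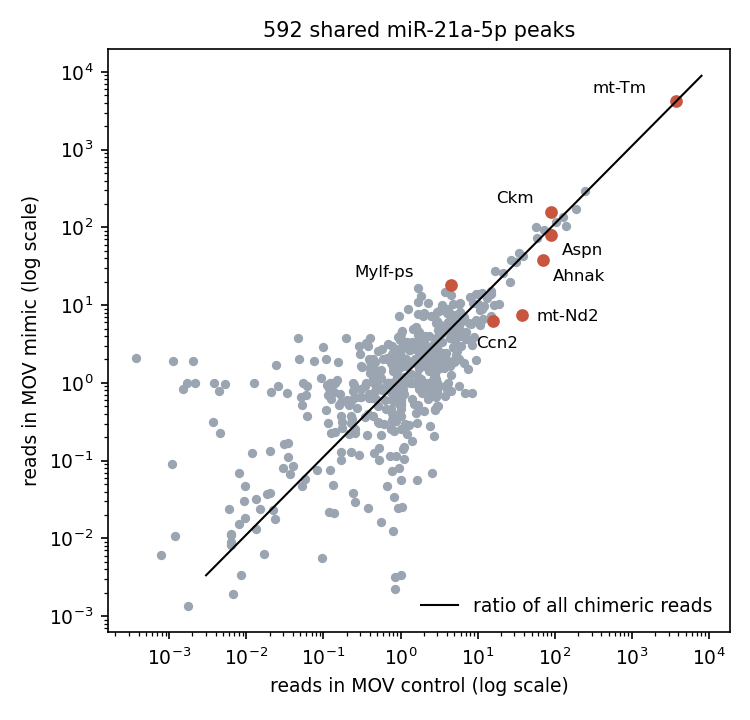
Reads of the 592 shared miR-21a-5p peaks in MOV control (horizontal axis) and MOV mimic (vertical axis), both on log scales, with a line at the ratio of all chimeric reads, 1.12. The mt-Nd2, Ccn2, Ahnak and Myh2 peaks lay below the line, and the Ckm peak, a Mylf-ps peak and a Myh1 peak (56.5 and 101 reads) lay above it.

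After mt-Nd2, the largest falls among the 36 shared peaks with a mean of at least 10 reads were at Ccn2 (ratio 0.400, 0.120 to 1.01) and Actb, cytoplasmic actin, with 14.7 and 7.17 reads (0.486, 0.161 to 1.22). The largest rises were at Mylf-ps, a pseudogene of the fast regulatory myosin light chain, with 4.47 and 18.1 reads (4.05, 1.48 to 18.3), then Ckm (1.80, 1.37 to 2.34) and a second Myh1 peak, chr11:67210376-67210460, with 56.5 and 101 (1.79, 1.27 to 2.50). Mylf-ps shares sequence with Mylpf, and another of its peaks went the other way, with 31.2 reads in MOV control and no overlapping miR-21a-5p peak in MOV mimic, so its values are uncertain. Mylpf itself held 4.53 and 13.1 reads.

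Summed over genes, 75 genes had at least 10 miR-21a-5p reads over both libraries, and the interval of the ratio lay wholly above 1.12 at 6 (8%) and wholly below it at 9 (12%). Over all 5041 pairs of a miRNA and a gene with as many reads, 5.75% lay above and 6.41% below. The lower ones were mt-Nd2, mt-Rnr2, Ccn2, Actb, Col1a1, Ahnak, Myh2, Mylf-ps and the predicted gene Gm6201, which held 9.56 and 1.98 reads. Besides Myh1, Ckm and mt-Nd5, the higher ones were Srl, Cox7a1 and Rhob. Srl, sarcalumenin of the sarcoplasmic reticulum, held 6.04 and 20.5 reads (ratio 3.40, 1.37 to 10.6). Cox7a1, the muscle form of a cytochrome c oxidase subunit, held 2.90 and 17.0 (5.88, 1.64 to 30.2), 16.8 of them in a mimic peak with no other miRNA. Rhob, a small GTPase and published miR-21 target, held 1.84 and 13.1 (7.11, 1.47 to 59.3), where all miRNAs had a ratio of 0.965.

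The seed was not used to choose the members, so seed matches are an independent feature of the targets. Matches were counted in the 3′ UTR of the longest GENCODE vM1 transcript of each protein-coding gene. Of genes led by miR-21a-5p in either library, 32 of 97 with a transcript (33.0%) held a match of at least 7 bases and 13 (13.4%) an 8-base match. Of genes with miR-21a-5p peaks of which none was led, 250 of 1463 (17.1%) and 61 (4.17%) did. Of genes with peaks of other miRNAs only, 612 of 5206 (11.8%) and 102 (1.96%) did. For these groups in the same order, the median 3′ UTR had 1356, 1393 and 1274.5 bases. The density of matches of at least 7 bases was 0.202, 0.112 and 0.0807 per 1000 bases. Whether 3′ UTR length bears on the shares was not tested. Of the 30 genes led in both libraries, 25 had a transcript and 10 of these (40.0%) held a match. Myh2, Ahnak, Ttn and Acta2 were not among these 10. Myh2 and Ttn did hold matches of 7 bases outside the 3′ UTR. Over the whole transcript, a match of at least 7 bases was held by 60% of the genes led in both libraries. It was held by 54.6% of those led in either, 27.3% with no led peak and 17.3% with peaks of other miRNAs only. Lengths of whole transcripts were not compared between these groups. A match anywhere in the 3′ UTR was counted, so it need not lie at the led peak.

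**Figure D5:**
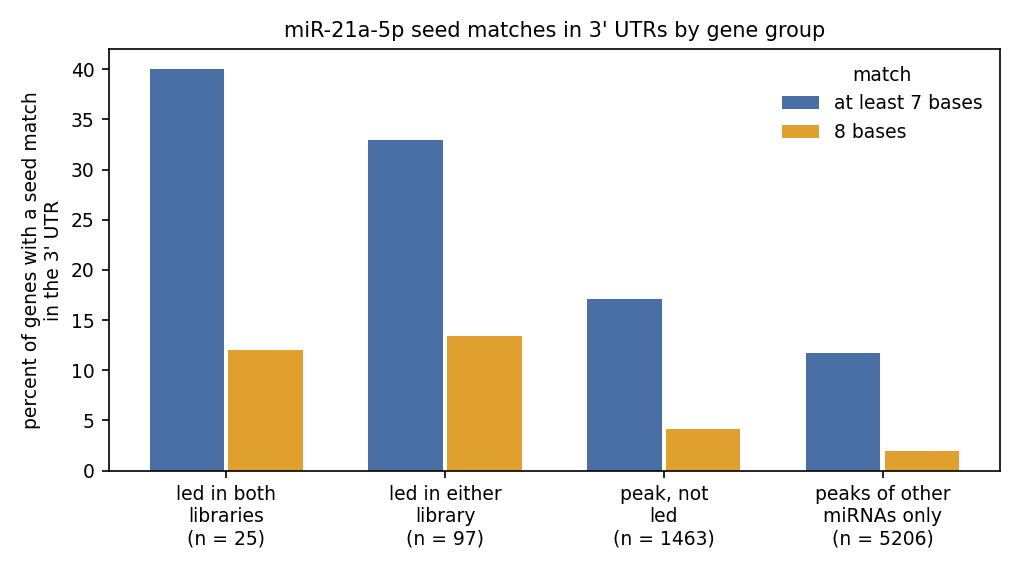
Percent of genes (vertical axis) whose 3′ UTR holds a miR-21a-5p seed match of at least 7 bases or of 8 bases, in 4 groups of genes named on the horizontal axis with their number. The share of at least 7 bases was 40.0% and 33.0% in the led groups, 17.1% in genes with a peak but none led, and 11.8% in genes with peaks of other miRNAs only.

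The position of matches was set beside the position of peaks by their distance from the 3′ end, taken from the transcript for the match and from the RefSeq gene span for the peak. The ends come from different annotations and introns in between were not checked, so this is a comparison of distances and not an alignment. It was limited to intervals of at least 3 reads of all miRNAs that lay no farther from the end than the 3′ UTR is long. Where such an interval had a miR-21a-5p line, a match of at least 7 bases fell within it at 32 of 295 intervals in MOV control (10.8%) and 31 of 273 in MOV mimic (11.4%). Where it had none, this was 16 of 2736 (0.585%) and 20 of 2968 (0.674%). The median interval had 89 and 86 bases with miR-21a-5p and 78 and 81 without. Within genes that hold a match, it fell inside 33.3% and 36.5% of the intervals with miR-21a-5p and 2.87% and 3.2% of those without. The median interval covered 3.03% and 2.85% of the 3′ UTR with miR-21a-5p and 2.17% and 2.18% without. Most led peaks lay farther from the end and were not covered. Of led peaks with a transcript, 14 of 61 in MOV control and 19 of 63 in MOV mimic lay within the 3′ UTR length. A match fell inside 7 and 9 of them. Of peaks of at least 3 miR-21a-5p reads that were not led, 21 and 17 of 77 lay within it, 8 and 5 with a match inside.

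The matches of some sites led in both libraries are shown, with the bases of the match in capitals, 5′ to 3′, as GENCODE vM1 transcripts give them.
Aspn: tttatgatcagttatATAAGCTttgaag
Ski: tttacacttttgttATAAGCTAtttaaa
Rnf167: tctttttccagtctaATAAGCTgagggt
Rbms3: attttcctcagtaatTAAGCTAtttttt
2700081O15Rik: atgcgtgtatcagagATAAGCTgtgagg
In Aspn the match ended 276 bases before the transcript's end, and the control peak lay 225 to 347 bases before the gene's end. In Ski the match ended 2961 bases and the peak lay 2915 to 2991 bases before it, and in Rnf167 130 bases and 102 to 205. In Rbms3, an RNA-binding protein, these were 5530 bases and 5478 to 5579, and in 2700081O15Rik 1690 and 1664 to 1743. These 5 were chosen to be shown because the match lay at a distance covered by the peak. They were 5 of the 10 genes led in both libraries that held a match. In the other 5, Esyt2, Tgfbi, Smc3, Aldh2 and Ecm2, it lay outside the led peak in both libraries. Ski held the 8-base match, Rbms3 a 7-base match ending in A, and Aspn, Rnf167 and 2700081O15Rik one that pairs with miRNA base 8.

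Of 27 published miR-21 targets, a list chosen with results of these data known, 21 had a peak of any miRNA. Of these, 16 had a miR-21a-5p peak (76.2%), 7 of them in both libraries. The share was 22% of all 8004 genes with a peak outside the mitochondrial chromosome and Rn18s-rs5. In the other lists below it ran from 45.8% (growth and TGF-beta signalling) to 89.7% (extracellular matrix). A share far above 22% was thus not particular to published targets. The list summed to 56.0 reads in MOV control and 55.9 in MOV mimic, 3.41% and 3.34% of the reads of all miRNAs at these genes, beside 1.61% and 1.5% over all genes. The best covered was Tpm1, tropomyosin, with 21.9 and 24.0 reads, where miR-21a-5p was 2.46% and 2.37% of all miRNA reads. Neither Tpm1 nor Rhob held a match of at least 7 bases in the 3′ UTR. Tgfbi, a matrix protein induced by TGF-beta, had 8.12 and 5.69, 52.6% and 40.9% of the reads at the gene, and its 1 peak was led by miR-21a-5p in both libraries. It held an 8-base match, 371 bases before the transcript's end, but the peak lay 115 to 231 bases before the gene's end. The other members with at least 3 reads in 1 library were Rhob, Nfib, a transcription factor, with 1.81 and 6.33, Pdcd4, a translation inhibitor, with 3.35 and 0.949, Peli1, a ubiquitin ligase, with 3 and 0.506, Cdc25a, a cell cycle phosphatase, with 3.61 and 0, and Bmpr2, a BMP receptor, with 3 and 0.

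At Pdcd4, the target for which miR-21 is perhaps best known, the only control peak lay 28350 to 28386 bases before the gene's end. It was led by miR-21a-5p (82.7%). The transcript's 8-base match ended 422 bases before its end, where neither library had a miR-21a-5p peak. The match of Cdc25a ended 940 bases before the end and the control peak lay 931 to 1054 bases before it. For both, the sequence around the match is shown.
Pdcd4: gtgtgggtgttctgATAAGCTActttct
Cdc25a: cttggctacaggacATAAGCTAaccttc
Of the regulators for which miR-21 is often named, Spry1, an inhibitor of growth factor signalling, had 2.85 reads in MOV control and 0 in MOV mimic, Spry2 had 0 and 1.63, and Timp3, an inhibitor of matrix proteases, 1.81 and 0. Reck, Smad7, Tgfbr2, Jag1 and Yod1 had peaks of other miRNAs and none of miR-21a-5p. Il12a, Fasl, Tiam1, Krit1 and Ppara had no peak of any miRNA. The exact Poisson interval of 0 reads reached 3.69, so differences between such values were not detectable at this depth.

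Genes of the sarcomere and Z-disc held the largest part of the nuclear miR-21a-5p reads. Of 40 genes, all with a peak of some miRNA, 33 had a miR-21a-5p peak (82.5%), beside 22% over all genes. They held 742 reads in MOV control and 942 in MOV mimic. This was 24.9% and 30.2% of the miR-21a-5p reads outside the mitochondrial chromosome and Rn18s-rs5. It was 1.56% (1.45 to 1.68%) and 1.56% (1.46 to 1.66%) of the reads of all miRNAs at these genes, near the 1.61% and 1.5% over all genes. Besides those above, Myot, a Z-disc protein, held 22.7 and 26.4 reads, Neb, nebulin of the thin filament, 13.1 and 24.0, and Myom1, myomesin, 6.28 and 7.86. The reads at the list had a ratio of 1.27 (1.15 to 1.40), as did those of all miRNAs there (1.28).

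Of 39 genes of the extracellular matrix 35 had a miR-21a-5p peak (89.7%), 22 of them in both libraries. This was the highest share of the 8 lists, beside 82.5% for the sarcomere and Z-disc and 22% over all genes. The list held 246 and 202 reads, 2.26% (1.99 to 2.56%) and 1.98% (1.72 to 2.27%) of the reads of all miRNAs there, beside 1.61% and 1.5% over all genes. The ratio was 0.821 (0.678 to 0.993) beside 0.936 for all miRNAs. Aspn alone held 95.9 and 84.3 of the list's miR-21a-5p reads, 64.0% and 61.5% of all miRNA reads at that gene. The median gene of the list had a share of 0.978% in MOV control, so the list's share rested largely on Aspn. Col1a1, the main chain of type 1 collagen, held 20.9 and 10.5, Col3a1, of type 3 collagen, 14.3 and 20.3, Col6a3, of type 6 collagen, 12.2 and 5.19, and Postn, periostin, 16.8 and 12.9. At the fibrillar collagens miR-21a-5p was a small part of the reads, 1.15% and 0.550% at Col1a1 and 1.12% and 1.77% at Col3a1.

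Of 22 genes of macrophages and lysosomes, 21 had a peak of any miRNA and 12 a miR-21a-5p peak (57.1%), beside 22% over all genes. They held 34.7 and 34.9 reads, 4.55% (3.21 to 6.31%) and 4.92% (3.46 to 6.8%) of the reads of all miRNAs there. This was the highest share of reads of the 8 lists in both libraries. Most of these reads were at Psap, the precursor of lysosomal saposins, with 16.3 in each library, and Ctsb, the lysosomal protease cathepsin B, with 9.63 and 12.4. Cd74, the invariant chain of antigen presentation, held 3.53 and 2.85, and Lgals1, galectin 1, 2.93 and 0. Both Psap and Ctsb are also made outside macrophages. miR-21a-5p was 15.6% and 17.5% of all miRNA reads at Psap and 11.5% and 17.1% at Ctsb. The list's share rested largely on them, as its median gene had a share of 0 in MOV control. Ctss, Spp1, Lgals3, Gpnmb, Apoe, C1qb, Fcer1g, Tyrobp and Lamp1 had peaks of other miRNAs and none of miR-21a-5p. Cd68 had no peak of any miRNA.

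Genes of energy metabolism in the fibre, 13 of 16 with a miR-21a-5p peak, held 108 and 188 reads (ratio 1.75, 1.37 to 2.23), beside a ratio of 1.12 for all miRNAs there, and Ckm held 92.4 and 165 of these. Ldha, lactate dehydrogenase, held 3.41 and 4.08, Ak1, adenylate kinase, 3.08 and 4.47, Pygm, muscle glycogen phosphorylase, 2.38 and 3.42, and Pkm, pyruvate kinase, 2.04 and 1.02. Of 12 genes of calcium handling 9 had a peak, with 17.8 and 39.2 reads (ratio 2.20, 1.21 to 4.02), beside 1.19 for all miRNAs, and Srl accounted for 6.04 and 20.5 of them. Atp2a1, the calcium pump of fast fibres, held 3.30 and 8.47, Trdn, triadin, 2.48 and 3.93, and Atp2a2, the pump of slow fibres, 2.86 and 2.7. Of 22 nuclear genes of the respiratory chain 13 had a peak, with 20 and 40.5 reads (2.02, 1.14 to 3.61), beside 1.12, of which Cox7a1 held 2.90 and 17.0. Atp5b, the beta subunit of ATP synthase, held 7.49 and 5.34, and Cox4i1, a cytochrome c oxidase subunit, 1.76 and 3. In each of these lists 1 gene thus carried much of the difference between the libraries. Of their genes with a peak of any miRNA, 81.25% (energy metabolism), 75% (calcium handling) and 61.9% (respiratory chain) had a miR-21a-5p peak. Over all genes this was 22%. By reads, miR-21a-5p was 1.68% and 2.63% of all miRNA reads at the energy metabolism genes in control and mimic. It was 0.624% and 1.15% at the calcium handling genes and 1.24% and 2.23% at the respiratory chain genes. Over all genes it was 1.61% and 1.5%, so a high share of genes with a peak did not mean a high share of reads.

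Genes of growth and TGF-beta signalling held the fewest miR-21a-5p reads of the 8 lists. Of 24 with a peak of any miRNA 11 had a miR-21a-5p peak (45.8%), 2 of them in both libraries, beside 22% over all genes. They held 12.3 and 5.50 reads, 1.02% and 0.511% of the reads of all miRNAs there. Igf2, an insulin-like growth factor, held 4.06 and 2.33, and Igf1r, the receptor of such factors, 1 and 0.

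The miRNAs whose reads were spread over genes most like those of miR-21a-5p were miR-133b-3p, miR-133a-3p and miR-378a-3p. Their cosine similarity to miR-21a-5p, of log2(summed reads + 1) per gene outside the mitochondrial chromosome and Rn18s-rs5, had means over the libraries of 0.473, 0.472 and 0.435, over 6603 genes in MOV control and 6881 in MOV mimic. The median over the 147 miRNAs was 0.229. All share the libraries and the abundance of the target RNAs, and miRNAs with many reads cover more genes, so the value is a description.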

How the data were processed

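Chimeric eCLIP-seq was analysed in the MOV control and MOV mimic libraries. RNA bound to Ago2 was cross-linked with UV light and immunoprecipitated, and the methods also describe amplification with a miR-1 primer, which could raise miR-1 reads relative to other miRNAs. The deposited values were expected counts (estimated numbers of chimeric reads, mostly fractions) of each miRNA in each peak, not scaled to depth by the authors. The submitters' processing notes name UMI-tools 1.1.1, cutadapt 3.2, STAR 2.7.7a, Bowtie 1.2.3 and HOMER 4.11 and the mm10 build, whereas the study's methods name mm9. Genes came from RefSeq GRCm38.p6 spans, with strand from the GRCm38 promoter and miRNA tables (28097 genes), GENCODE vM1 names (9310) or mitochondrial spans (37). Another 12553 genes without a strand were used only where no gene of known strand overlapped. GRCm38 exons were not used here, so peaks were not placed in exons or UTRs. With 1 library per group no test between conditions was made. Intervals are 95% intervals on reads rounded to whole numbers (exact Clopper-Pearson, Poisson and conditional binomial, and order statistics for medians), computed with Python 3.11.15 and scipy 1.17.1. The methods were tested on simulated data. The members and lists were chosen with earlier results of these data known. Named genes were the 10 nuclear genes with the most miR-21a-5p reads in each library, mitochondrial genes and Rn18s-rs5 peaks of at least 10 reads, published targets of at least 3 reads, the 10 highest sites led in both libraries, the 3 largest rises and falls, and up to 4 further genes per list with the most reads. Genes named by their share of reads, the genes off the depth ratio, and those whose seed match is shown were chosen after their values were seen. A few listed genes are not reported here by name.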

Additional observations from a re-analysis of the deposited data

How the results depend on the processing

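No paired analysis was possible because only 1 library stood in each group. No other name with the same seed was listed, so adding such names could not be run. Adding miR-3967 and miR-3965, chosen after seeing the data like the settings without the mt-Tm peak and those of the gene lists, moved no result beyond its interval. The miR-21a-5p share of reads in control and mimic was 3.42% and 3.34% with lines of at least 1 read, 3.85% and 3.76% with at least 3, 1.77% and 1.67% without the mitochondrial chromosome, 1.61% and 1.5% also without Rn18s-rs5, 1.70% and 1.60% without the mt-Tm peak, and 2.04% and 1.91% as a share of peaks. The mimic to control ratio, 1.09, fell to 1.05 without the mitochondrial chromosome, without it and Rn18s-rs5 (1.05) and without the mt-Tm peak (1.05), and turned to 0.981 after division by the library totals. The mitochondrial share was 56.9% and 58.6% with at least 1 read, 65.1% and 66.0% with at least 3, 57.6% and 59.5% without Rn18s-rs5, and 8.81% and 8.26% without the mt-Tm peak, on which it rested. Target genes numbered 593 and 585 with at least 1 read, 134 and 131 with at least 3, and 319 and 304 with at least 2 peaks. The overlap was 36.3% with at least 1 read, 57.7% with at least 3 and 26% with a reciprocal overlap of at least 50%. The median log2 ratio of shared peaks was -0.10 after division by the totals. Led sites numbered 48 and 46 at 70% of the reads and 202 and 200 with at least 1 read. With at least 1 read, 6 genes of growth signalling and 7 of macrophages and lysosomes had a peak. Of 63 named genes, the interval of the ratio left out 1 at 13, and at 14 after division by the library totals. Some of these genes were picked as the largest rises and falls, so the count partly follows from the choice and is not a rate. After the division the interval included 1 at Ttn (0.927 to 1.54) and mt-Tm (0.979 to 1.07). At Col1a1 and mt-Rnr2 it left out 1 only then, and at Actb then and also with lines of at least 1 read (0.173 to 0.976). With lines of at least 1 read it also left out 1 at Mylpf (1.19 to 23.7). In that setting it included 1 at Ccn2 (0.120 to 1.01) and Ttn (0.983 to 1.71). Of the alternatives run on single genes 114 stayed within the interval and 4 moved without a change of direction, at Igf2, Pdcd4, Peli1 and mt-Tm. Of the lines, 59.3% and 59.6% held under 1 read.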

Other observations

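The other arm of the hairpin, miR-21a-3p, had 28.0 reads in 33 lines in the control and 21.8 in 39 lines in the mimic (ratio 0.779, 0.428 to 1.42). In the control its highest peak, with 6.24 reads, was the place from which miR-21a itself is made, chr11:86584110-86584144 on the minus strand, within Vmp1, which covers the whole mature miR-21a-5p at 86584120 to 86584141. This interval held 27.4 reads of 12 names in the control and, as 86584113 to 86584144, 41.3 reads of 19 names in the mimic. miR-21a-5p was listed as its own partner there with 3 and 8.20 reads, miR-133a-3p with 3 and 7.84, and miR-21a-3p had 3.30 in the mimic.

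Of the sites led by miR-21a-5p, 21 of 72 in the control (29.2%) and 24 of 68 in the mimic (35.3%) lay within 2000 bases of the end of the gene span, beside 31.3% and 32.2% of the sites led by other miRNAs.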
